A study of Mus musculus with 4 samples.

Results

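Tet2 knockout and Tet2 wild-type cells, neither of them given drug, were compared gene by gene in a deposited table of FPKM values (fragments per kilobase of transcript and 1000000 fragments). A gene counted as measured when its mean over the 4 libraries of the series was at least 1 FPKM, when it lay off the X and Y chromosomes and when it was not a small RNA. Of 24340 genes in the table, 10471 passed the level, and 330 sex-linked genes and 231 small RNA genes were then left out, so that 9910 genes were described. The wild-type control library held JAK2V617F;Tet2+/+ cells and the knockout control library held JAK2V617F;Tet2-/- cells, both with the treatment label control. All 4 libraries came from C57BL/6 mice, and their cells were bone marrow cells labelled Lin-cKit+, a gate for immature blood cells that lack lineage markers and carry the receptor Kit. A wild-type and a knockout library of the same genotypes given ruxolitinib, which blocks the Janus kinases 1 and 2, share no library with the pair without drug, and their values are given beside it. The series' design text speaks of conditional inactivation of Tet2 and Dnmt3a in the blood system and of a cross to Flt3ITD, whereas the labels of these libraries name JAK2V617F and Tet2 alone. The Cre line, the age and sex of the mice, any pooling of animals, and the dose and duration of ruxolitinib were not given in the sources used here. Where 2 values stand for a genotype, the first is its control library and the second its ruxolitinib library. Each group had 1 library, so no difference below has a replicate check, and every count describes these libraries.

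Tet2 is a dioxygenase that oxidises 5-methylcytosine in DNA, a step towards the removal of the methyl mark, and it is often mutated in myeloid neoplasms. JAK2V617F is a constitutively active form of the kinase that signals for the erythropoietin and granulocyte-macrophage receptors, and it often occurs together with loss of Tet2 in myeloproliferative disease. Mast cells, which recur below, are tissue cells of the myeloid lineage that depend on Kit, bind IgE through the receptor whose alpha chain is Fcer1a, and store serine proteases on heparin and serglycin in granules.

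The libraries were checked against their labels. Kit stood at 487 FPKM in the wild-type control and 421 FPKM in the knockout control, and at 647 and 562 FPKM in the matching ruxolitinib libraries. The small RNA entry Mir6236 had the highest value in every library, between 21376 and 39812 FPKM. Cma1, a mast cell chymase, was the protein-coding gene with the highest listed value. The 18 mast cell markers summed to 35657 and 40476 FPKM in the wild-type control and ruxolitinib libraries and to 23920 and 29400 FPKM in the knockout ones, with 15 to 17 of them at 1 FPKM or more in each. The mast cell carboxypeptidase Cpa3 was listed at 0 in every library, with the status HIDATA in the authors' deposited table in place of the status OK of tested genes. Its 0 is therefore not read as absence. The marker sums and counts above are without a usable value for it. Flt3, which marks early progenitors, was listed at 0 in all 4, as were the B cell genes Ms4a1, Pax5 and Ebf1 and the neutrophil receptor Csf3r. Of 13 stem and multipotent progenitor markers, Flt3 among them, 5 or 6 reached 1 FPKM in each library. Ly6a was at 938 and 1033 FPKM in wild type against 583 and 749 FPKM in the knockout. Cd34 was at 307 and 431 FPKM against 317 and 465 FPKM. In bulk RNA, fewer cells of a type and less RNA per cell cannot be told apart. The values of Tet2 over the whole gene, 4.69 and 5.05 FPKM in wild type and 3.62 and 4.39 FPKM in the knockout, do not check a deletion of part of the gene. The X-linked RNA Xist was at 0.0241 and 0.0309 FPKM in wild type against 53.2 and 62.2 FPKM in the knockout, and the Y-linked gene Ddx3y went from 21.3 and 18.7 FPKM to 0.0288 and 0.00886 FPKM, so that genotype and sex cannot be told apart. Steps between the lowest values put the depth near 44400000 fragments for the wild-type control and 54900000 for the knockout control, with 47900000 and 51900000 for the ruxolitinib libraries. These depths hold only if FPKM were scaled to each library's own total, and the scaling was not given in the sources used here. By the same steps, 1 FPKM on a transcript of 1 kilobase stands for between 44.4 and 54.9 fragments.

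Most genes lay close together in the control libraries. Ratios are given as log2 of (knockout FPKM + 1) over (wild-type FPKM + 1), which understates the difference of low genes. Their median was 0.00 with quartiles of -0.16 and 0.18, and 92.3% of genes lay within 1.5-fold. In the knockout control library 64 genes (0.646% of those measured) were at least 2-fold higher and 113 (1.14%) at least 2-fold lower, 1.79% in all. At 1.5-fold or more, the size used below for members of gene lists, 322 genes (3.25%) were higher and 445 (4.49%) were lower. The split between higher and lower depends on the scale. The FPKM sum to 526299 in the wild-type control library and to 473933 in the knockout control library, and rescaling both to the same total (TPM) moves the median ratio up by 0.15, so that 130 genes pass 2-fold higher and 103 lower, a share of 55.8% higher in place of 36.2%. List medians are therefore read against the median of all genes, which is 0.00 in FPKM and 0.15 in TPM. Of the 35 function lists out of 41 with a median below 0, 17 have a median above 0 in TPM. Since the median of all genes moves up too, a list median above 0 in TPM can still lie below that of all genes.

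**Figure D1:**
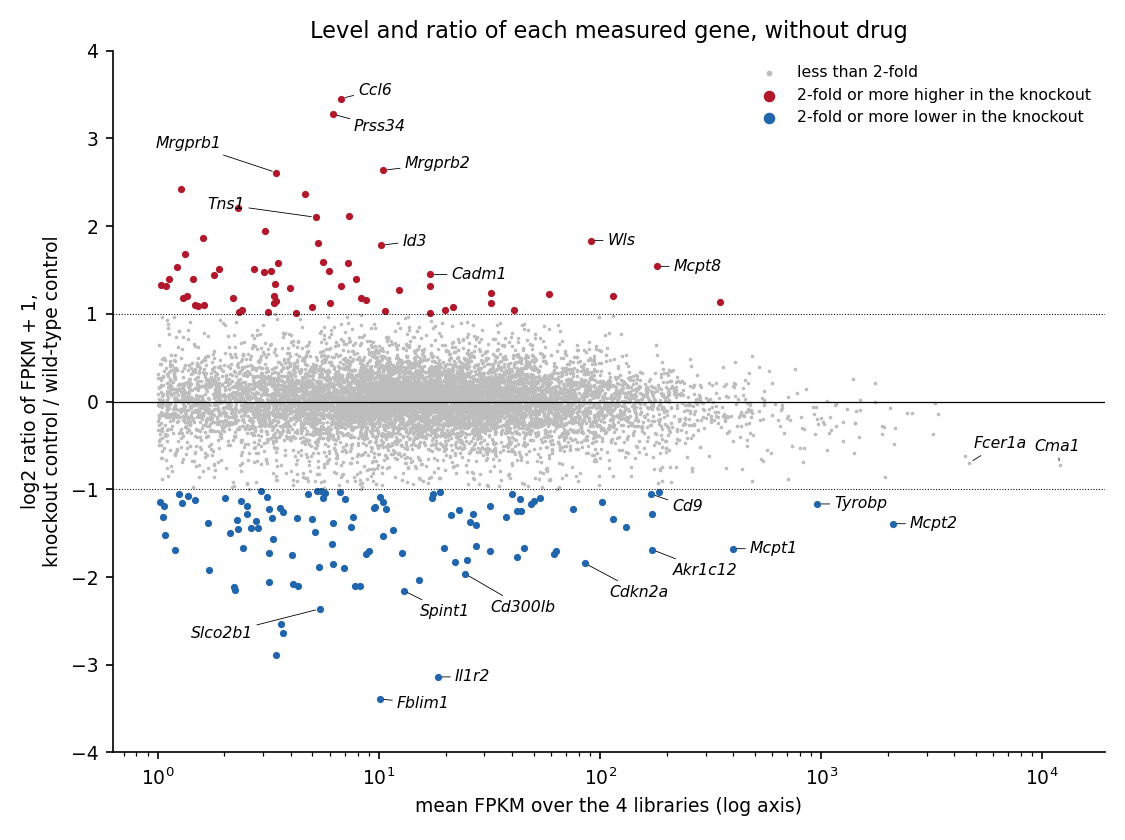
Each point is a measured gene; the x axis gives its mean FPKM over the 4 libraries on a log axis and the y axis its log2 ratio of FPKM + 1, knockout control over wild-type control. Red points are 2-fold or more higher and blue points 2-fold or more lower, dotted lines mark 2-fold, and 1 gene, Rpl34-ps1 at -9.78, lies outside the axis. Blue points reach up to the abundant granule protease Mcpt2, whereas most red points lie at low FPKM.

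Counts were also taken by level of expression. Among the 745 genes with a mean of 100 FPKM or more, 9 were higher and 48 were lower at 1.5-fold or more, and the median ratio was -0.07. In the 3335 genes between 20 and 100 FPKM the counts were 84 and 116, and in the 3803 genes between 5 and 20 FPKM they were 126 and 157. The 2027 genes between 1 and 5 FPKM gave 103 and 124. The pair of ruxolitinib libraries can be read for the same genes: of the 64 genes at 2-fold or more higher without drug, 62 were at 1.5-fold or more higher there, and of the 113 lower genes, 93 were at 1.5-fold or more lower, against 2.41% and 2.73% of all measured genes in that pair. Both pairs share the genotype and the sex difference. In the authors' deposited table, 56 of the 64 and 102 of the 113 genes have a q-value below 0.05, as do 1889 of the 9910, a test that compares these libraries and not the genotypes. Genes named below that lack such a q-value include Cma1, Cnn2, Akr1c18, Unc5a and Pet117.

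**Figure D2:**
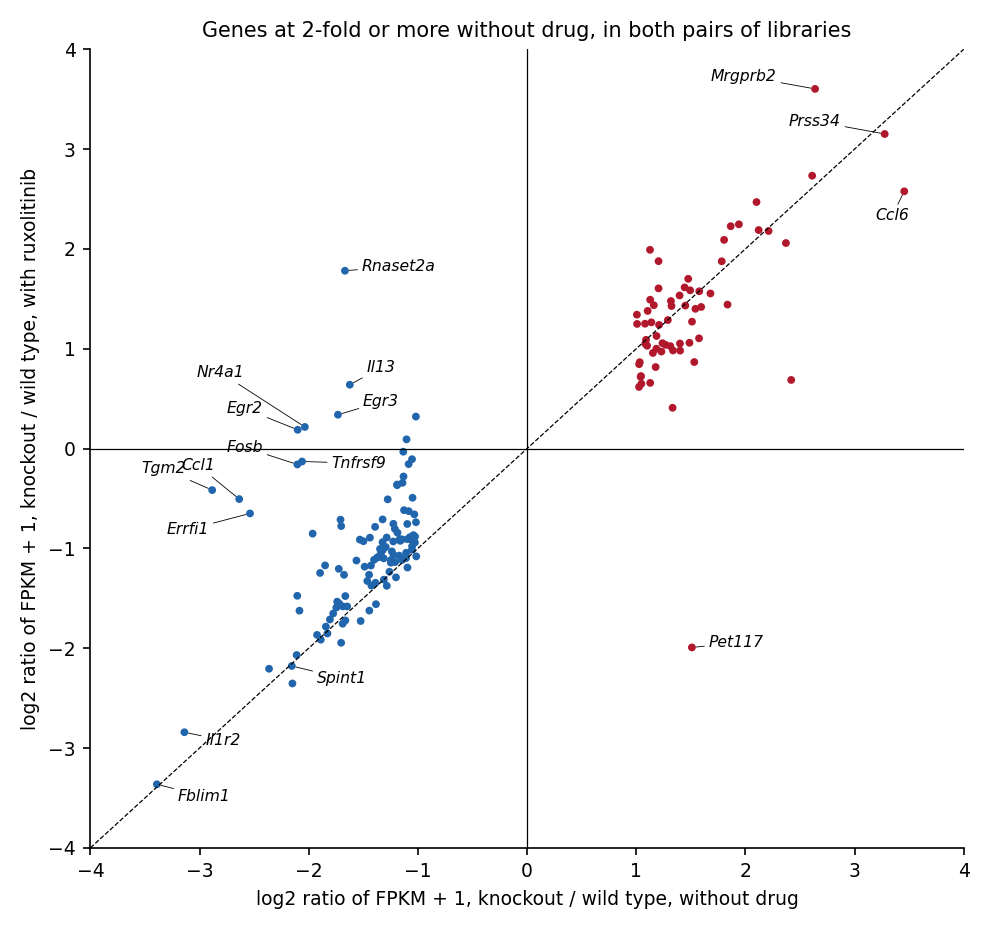
Genes at 2-fold or more without drug, with the log2 ratio of FPKM + 1, knockout over wild type, without drug on the x axis and with ruxolitinib on the y axis; the dashed line marks equal ratios, and Rpl34-ps1 lies outside the axes. Fblim1, Il1r2, Prss34 and Mrgprb2 lie in the same corner in both pairs, while Egr2, Nr4a1 and Egr3 lie at or just above 0 on the y axis.

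Since Tet2 acts on methylated CpG sites, the number of CG dinucleotides at gene starts was counted, an alternative chosen after seeing the data. Over the first 300 bases of the GENCODE transcript whose start is used for each gene, 5.36% of all measured genes with a sequence (527 of 9824) held 5 or fewer CG. The share was 22.2% (14 of 63) among genes at 2-fold or more higher and 21.4% (24 of 112) among those at 2-fold or more lower. At 1.5-fold or more it was 9.06% for higher and 16.2% for lower genes. At each level of expression, with 5 or fewer CG between 16.3% and 20.7% of genes were past 1.5-fold in either direction, and with more than 5 between 5.51% and 10.1%. Most of that gap lay among lower genes: between 20 and 100 FPKM, 17.1% against 3.02% were lower and 3.60% (4 genes) against 2.49% were higher, and between 5 and 20 FPKM, 11.3% against 3.83% were lower and 4.96% against 3.25% were higher. A matching count in the RefSeq promoter table was void, since that table covers 78.0% of the higher and 77.5% of the lower genes at 1.5-fold.

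**Figure D3:**
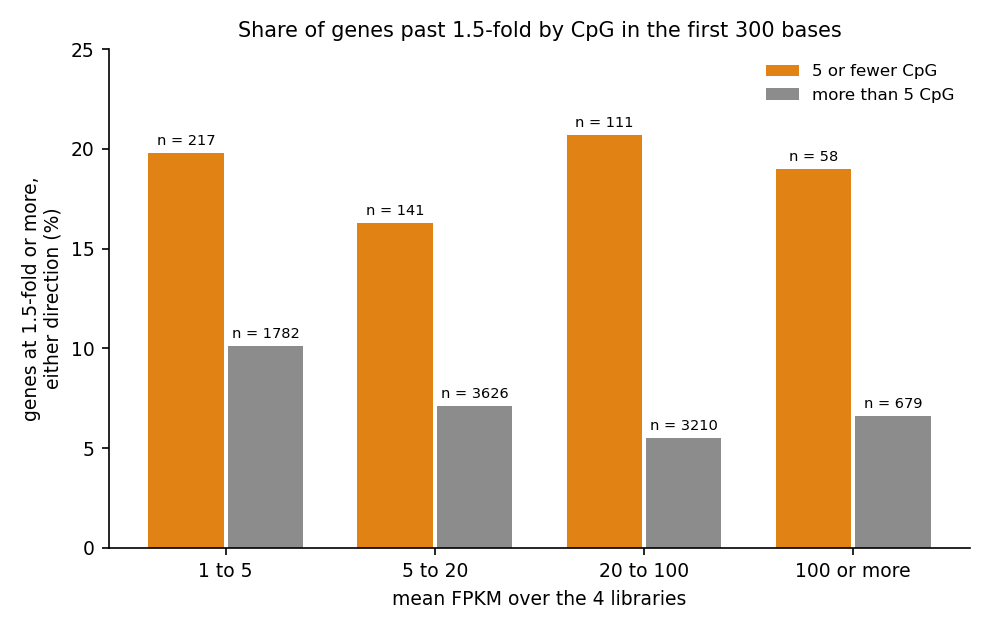
Bars give the percentage of measured genes at 1.5-fold or more in either direction, by mean FPKM over the 4 libraries on the x axis, for genes with 5 or fewer (orange) and more than 5 (grey) CpG in the first 300 bases of the transcript; n is the number of genes per bar. The orange bars stand at 19.8%, 16.3%, 20.7% and 19.0%, each above the grey bar of the same level.

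Windows of 250 bases before the start are shown for genes that the results below turn on, with every CG in capitals (RefSeq, GRCm38.p6, written 5′ to 3′ on the strand of the gene). Mrgprb1 (chr7:48456343-48456592, minus strand), Mrgprb2 (chr7:48558087-48558336, minus strand) and Prss34 (chr17:25298144-25298393, plus strand) were far higher in the knockout and Cma1 (chr14:55944676-55944925, minus strand) was lower, and their windows hold 1, 0, 3 and 2 CG. Egr2 (chr10:67537619-67537868, plus strand) and Nr4a1 (chr15:101266596-101266845, plus strand), high in the wild-type control library alone, hold 17 and 34.
Mrgprb1: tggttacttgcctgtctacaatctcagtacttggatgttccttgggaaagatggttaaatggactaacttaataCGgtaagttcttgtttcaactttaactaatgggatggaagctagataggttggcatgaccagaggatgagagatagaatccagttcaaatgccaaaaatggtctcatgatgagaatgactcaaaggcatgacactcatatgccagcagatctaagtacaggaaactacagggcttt
Mrgprb2: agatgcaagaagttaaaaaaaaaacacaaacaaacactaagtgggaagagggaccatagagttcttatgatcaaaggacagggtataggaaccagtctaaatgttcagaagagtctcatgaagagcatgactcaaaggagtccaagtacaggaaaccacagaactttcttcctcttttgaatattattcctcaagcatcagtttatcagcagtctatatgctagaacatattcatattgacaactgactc
Prss34: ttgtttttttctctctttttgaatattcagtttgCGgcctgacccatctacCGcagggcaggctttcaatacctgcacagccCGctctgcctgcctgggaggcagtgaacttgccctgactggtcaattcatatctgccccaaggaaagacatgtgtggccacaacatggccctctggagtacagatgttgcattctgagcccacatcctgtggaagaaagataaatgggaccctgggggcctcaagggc
Cma1: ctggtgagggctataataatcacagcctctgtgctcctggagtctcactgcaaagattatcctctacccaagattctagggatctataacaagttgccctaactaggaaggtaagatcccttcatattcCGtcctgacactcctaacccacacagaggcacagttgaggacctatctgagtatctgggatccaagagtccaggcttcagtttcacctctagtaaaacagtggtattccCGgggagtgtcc
Egr2: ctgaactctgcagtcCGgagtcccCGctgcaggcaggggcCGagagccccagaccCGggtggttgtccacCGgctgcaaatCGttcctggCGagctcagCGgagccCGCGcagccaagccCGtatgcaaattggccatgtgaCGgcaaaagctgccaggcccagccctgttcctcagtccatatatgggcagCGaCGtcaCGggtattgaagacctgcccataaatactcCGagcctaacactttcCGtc
Nr4a1: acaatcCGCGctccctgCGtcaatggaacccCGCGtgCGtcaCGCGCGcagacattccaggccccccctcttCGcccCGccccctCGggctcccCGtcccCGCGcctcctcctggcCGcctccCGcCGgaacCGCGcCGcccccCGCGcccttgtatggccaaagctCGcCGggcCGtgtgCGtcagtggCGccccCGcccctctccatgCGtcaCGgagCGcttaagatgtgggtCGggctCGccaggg
The count over the first 300 transcribed bases, on which the shares above rest, places some of these genes differently: Egr2 has 5 CG there and falls among the genes with 5 or fewer, as do Cma1, Mrgprb1 and Mrgprb2, whereas Prss34 has 8 and Nr4a1 has 17. Methylation was not measured here.

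Cytokine and growth factor receptors carry signals from outside the cell into kinase pathways. Of 39 measured, 4 were at 1.5-fold or more higher and 6 lower, with a median of -0.10. In TPM the median was 0.04, which is -0.11 relative to all genes. Il1r2, the decoy receptor that binds interleukin 1 without signalling, was at 38.5 and 28.7 FPKM in wild type against 3.48 and 3.15 FPKM in the knockout. Both wild-type values lay far above both knockout values, with log2 ratios of -3.14 without drug and -2.84 with ruxolitinib. Il10ra, a receptor chain for interleukin 10, stood at 87.1 FPKM in the wild-type control and 47.2 FPKM in the knockout control, with 78.0 and 56.4 under ruxolitinib. Crlf2, the receptor for thymic stromal lymphopoietin, was at 142 against 78.5 FPKM, with 148 and 88.2 under ruxolitinib. Each of these receptors was thus lower in both knockout libraries. In the other direction, the fibroblast growth factor receptor Fgfr1 was at 10.3 and 9.77 FPKM in wild type against 21.8 and 26.3 FPKM in the knockout, a log2 ratio of 1.01. Pdgfrb, a platelet-derived growth factor receptor of stromal cells, went from 0.146 and 0.151 FPKM to 1.86 and 2.21 FPKM. Of 13 markers of stroma and endothelium, 2 in each wild-type and 3 in each knockout library reached 1 FPKM, Pecam1 and Tek beside Pdgfrb, their sum was between 128 and 185 FPKM, and Col1a1, Col1a2, Pdgfra and Cdh5 were near 0. Their part in the Pdgfrb values was not tested. The most abundant receptors differed little: Csf2rb2 and Csf2rb, beta chains for interleukin 3 and related cytokines, had log2 ratios of -0.41 and -0.37, and the interleukin 33 receptor Il1rl1 had -0.23.

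The TNF receptor family had 1 of 12 measured members higher and 4 lower. Tnfrsf9, the costimulatory receptor 4-1BB, stood at 10.01 FPKM in the wild-type control and at 1.64 in the knockout control, but at 0.581 and 0.445 FPKM in the ruxolitinib libraries. Here the wild-type control stood alone above the other 3. Tnfrsf21, a death receptor, kept the same order in both pairs, with 33.4 against 18.6 FPKM without drug and 36.0 against 18.8 FPKM with it. Tnfrsf8, also called CD30, was the higher member, at 2.10 against 5.41 FPKM without drug and 0.598 against 1.51 FPKM with it.

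G protein-coupled receptors sense small mediators, peptides and chemokines, and their list held both ends of the comparison. Of 53 measured, 4 were higher and 9 lower at 1.5-fold or more, with a median of -0.23. Mrgprb2, the mast cell receptor for cationic peptides and drugs, was at 0.769 and 1.52 FPKM in wild type against 10.01 and 29.6 FPKM in the knockout, a log2 ratio of 2.64. Its neighbour Mrgprb1 was at 0.225 and 0.177 FPKM in wild type and at 6.48 and 6.83 FPKM in the knockout, a log2 ratio of 2.61. Both were low in wild type whether or not drug was given. The leukotriene B4 receptors Ltb4r1 and Ltb4r2, whose genes lie side by side, were at 4.46 and 3.53 FPKM in the wild-type control and at 1.15 and 0.735 FPKM in the knockout control. The fractalkine receptor Cx3cr1 was at 7.82 and 14.05 FPKM in wild type and at 2.55 and 6.02 FPKM in the knockout, and the platelet-activating factor receptor Ptafr was at 8.55 and 12.5 FPKM against 4.10 and 5.96 FPKM. For Cx3cr1 and Ptafr each knockout library was below the wild-type library of its own treatment. F2r, the thrombin receptor and the most abundant member, had 377 FPKM in the wild-type control and 262 FPKM in the knockout control.

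Fc, immunoglobulin-like and lectin receptors include the IgE receptor and the paired inhibitory and activating receptors of myeloid cells. Of 54 measured, 6 were higher and 13 lower, with a median of -0.23. Fcer1a, the IgE-binding chain, was at 5594 and 6009 FPKM in wild type against 3451 and 3648 FPKM in the knockout, a log2 ratio of -0.70. Tyrobp, the adaptor DAP12 that passes on signals from activating receptors, was at 1202 and 1373 FPKM against 535 and 731 FPKM, a log2 ratio of -1.17. In both genes the 2 wild-type libraries were the higher ones. The activating receptor Cd300lb, which pairs with Tyrobp, was at 35.5 and 35.3 FPKM in wild type and at 8.34 and 19.1 FPKM in the knockout. Cd96, a receptor for nectin-like molecules, was at 32.6 and 51.3 FPKM against 9.74 and 16.5 FPKM, and the signalling lymphocyte receptor Cd244 was at 48.8 and 55.7 FPKM against 18.9 and 27.1 FPKM. Its ligand Cd48 lay the other way, at 35.8 and 23.5 FPKM in wild type and at 66.4 and 51.4 FPKM in the knockout. The lectin Clec10a was also higher, at 68.5 and 64.7 FPKM against 134 and 128 FPKM. Pilrb1 and Pilrb2, near-identical activating receptors that also signal through Tyrobp, were at 7.69 and 1.40 FPKM in the wild-type control and at 19.9 and 4.86 FPKM in the knockout control. How reads shared by such near-identical genes were divided is not given in the sources used here, so values of single members are uncertain. Among 17 pattern receptors and their partners, 2 were higher and 3 lower. Nlrp3, the sensor of an inflammasome, was at 18.1 against 9.92 FPKM without drug and at 10.8 against 12.7 FPKM with it, so the order of the genotypes differed between the pairs.

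**Figure D4:**
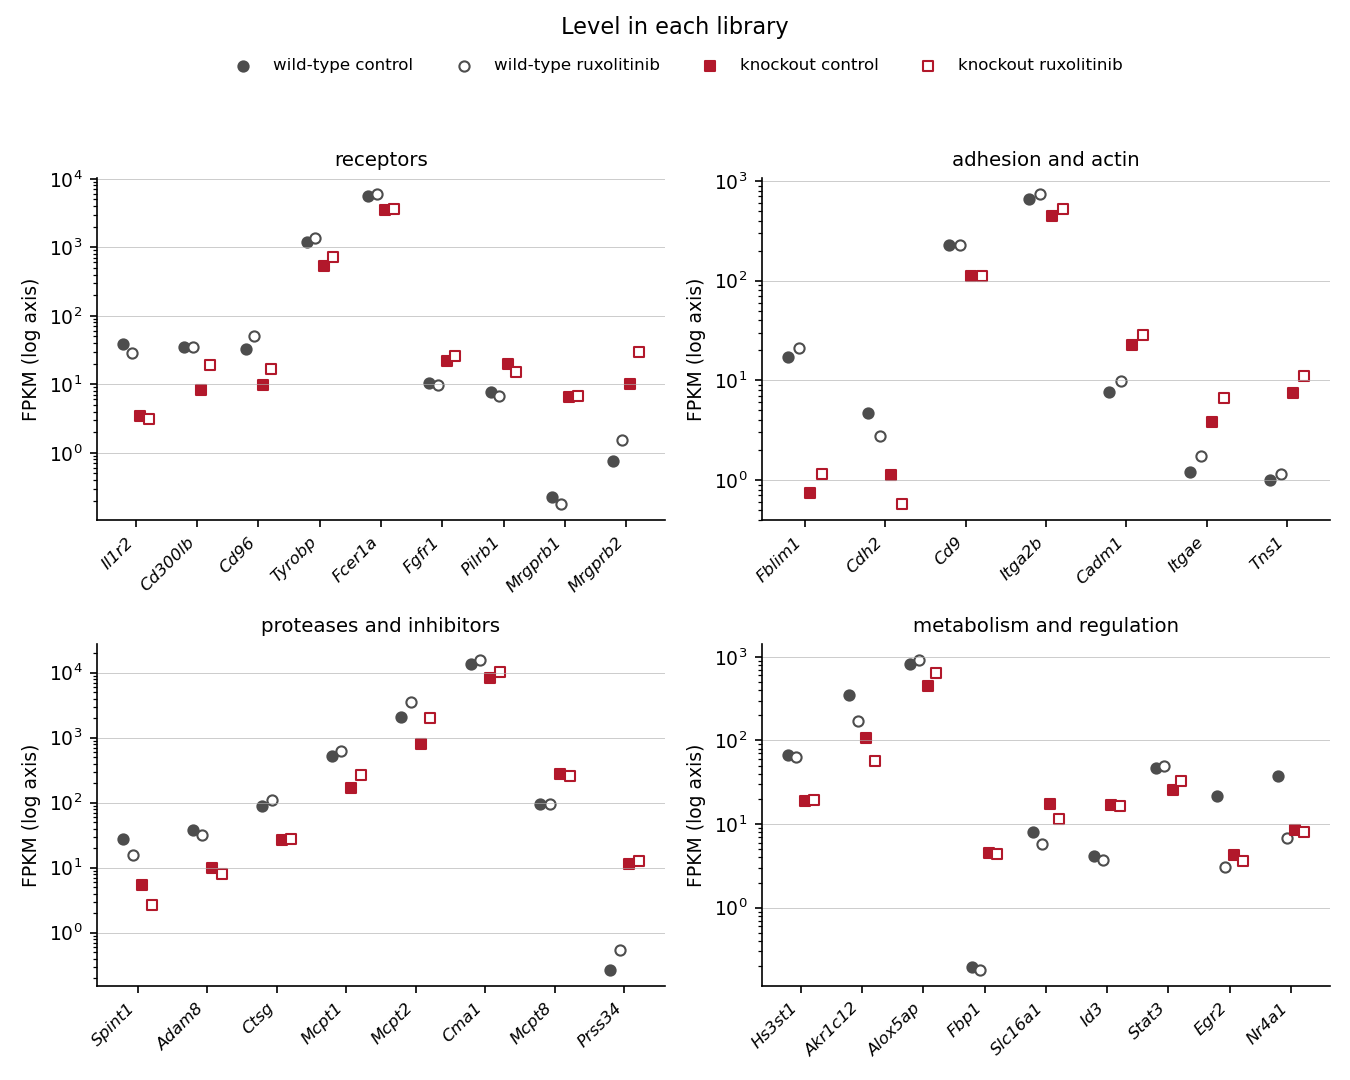
FPKM of selected genes in each library on log axes; circles are wild type, squares are knockout, filled symbols are control and open symbols ruxolitinib. For Il1r2, Fblim1, Cadm1, Ctsg, Mcpt8, Hs3st1 and Id3 the wild-type and knockout symbols do not overlap, whereas for Egr2 and Nr4a1 the wild-type control symbol alone is high.

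Integrins and other adhesion molecules hold cells to matrix and to each other. Of 13 integrin genes measured, Itgae and Itga9 were higher and Itga2b was lower. Itgae, the chain that binds E-cadherin, was at 1.19 and 1.73 FPKM in wild type against 3.79 and 6.67 FPKM in the knockout, and Itga2b, a chain of the fibrinogen receptor of platelets and young mast cells, was at 665 and 743 FPKM against 442 and 529 FPKM. Of 33 other adhesion molecules, 4 were higher and 5 lower, with a median of -0.07. That median lies above 0 without a filter on low values and in TPM, where it is -0.07 relative to all genes. Cadm1, which holds mast cells to fibroblasts and nerves, was at 7.64 and 9.83 FPKM in wild type and at 22.6 and 28.2 FPKM in the knockout. Cdh2, N-cadherin, was at 4.75 and 2.77 FPKM against 1.11 and 0.569 FPKM, and the galectin Lgals3 was at 116 and 54.1 FPKM against 57.8 and 33.6 FPKM. The wild-type and knockout libraries of Cadm1 and Cdh2 did not overlap, while for Lgals3 the wild-type ruxolitinib library lay below the knockout control.

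Tetraspanins organise such molecules in the membrane, and of 16 measured 2 were higher and 4 lower. Cd9 was at 231 and 227 FPKM in wild type against 111 and 112 FPKM in the knockout, a log2 ratio of -1.05, and the granule membrane protein Cd63 was at 1572 and 1746 FPKM against 1045 and 1257 FPKM. Cd81 lay the other way, at 17.3 and 20.6 FPKM against 29.0 and 43.4 FPKM. Guidance molecules gave 2 higher and 4 lower of 12: Nrp1, a semaphorin and growth factor coreceptor, was at 0.862 and 1.14 FPKM against 4.18 and 5.95 FPKM. The semaphorin Sema4d was at 171 and 172 FPKM against 102 and 108 FPKM. Unc5a, a netrin receptor, was at 1.90 and 2.36 FPKM in wild type and at 0.00964 and 0.0153 FPKM in the knockout, levels near 0.

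Genes of focal adhesions and the actin cytoskeleton were mostly lower. Of 81 measured, 67 had a ratio below 0, 10 were at 1.5-fold or more lower and 1 was higher. The median of -0.22 stays below 0 in TPM (-0.08, which is -0.228 relative to all genes). Fblim1, which links filamin to kindlins at adhesions, had the lowest ratio of the measured genes apart from Rpl34-ps1, at 17.3 and 21.1 FPKM in wild type against 0.742 and 1.15 FPKM in the knockout, a log2 ratio of -3.39. Its partner kindlin-2, Fermt2, was at 8.54 and 4.80 FPKM against 1.84 and 0.923 FPKM. The small GTPase Rhoc was at 5.35 and 4.98 FPKM against 1.15 and 1.75 FPKM, and the actin-binding calponin Cnn2 was at 147 and 173 FPKM against 57.5 and 80.9 FPKM. All 4 genes were lower in both knockout libraries. The locus given for Cnn2 is also that of the gene Elane, so the assignment of its reads is uncertain. Rhob, an early response gene as well as a GTPase, stood at 102 FPKM in the wild-type control but between 48.6 and 56.9 FPKM in the other 3 libraries. Tns1, a tensin that ties integrins to actin, was the 1 higher member, at 0.991 and 1.16 FPKM against 7.54 and 10.95 FPKM. Actb, the most abundant member, was at 2529 and 2055 FPKM in the control libraries.

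Granule serine proteases split. Of 14 measured, 3 were higher and 5 lower, with a median of -0.13. In TPM the median was 0.02, which is -0.125 relative to all genes. Among the chymases, which cleave after aromatic residues, Cma1 was at 13677 and 15834 FPKM in wild type against 8289 and 10118 FPKM in the knockout, a log2 ratio of -0.72. Mcpt1 was at 531 and 632 FPKM against 165 and 263 FPKM, and Mcpt2 was at 2085 and 3518 FPKM against 794 and 2043 FPKM. Mcpt4, also an abundant chymase, differed little, at 2312 and 2940 FPKM against 2111 and 2981 FPKM. Ctsg, the cathepsin G of myeloid granules, was at 90.4 and 108 FPKM against 27.1 and 27.3 FPKM, a log2 ratio of -1.70. Their neighbour Mcpt8, a protease typical of basophils, lay the other way at 94.4 and 95.6 FPKM in wild type against 277 and 254 FPKM in the knockout. Prss34, also known as a protease of basophils and mast cells, went from 0.266 and 0.548 FPKM to 11.3 and 12.8 FPKM, a log2 ratio of 3.28. Of 12 basophil markers, 8 in each wild-type and 10 in each knockout library reached 1 FPKM. Their sum was 8815 and 8608 FPKM in wild type and 6342 and 6028 FPKM in the knockout, most of it from Fcer1a and Cyp11a1, and without these genes, a choice made after seeing the data, it was 881 and 795 FPKM against 964 and 941 FPKM. That remaining sum still holds Mcpt8, named above as higher, so its direction is not separate from Mcpt8. Of its other large members, Gata2 was at 409 and 375 FPKM against 349 and 333 FPKM. Cd200r3 was at 318 and 267 FPKM against 274 and 281 FPKM, and Il3ra at 38.8 and 44.6 FPKM against 39.1 and 46.3 FPKM. Cebpa, a factor of basophils and neutrophils, was at 0.111 and 0.0683 FPKM against 1.62 and 1.505 FPKM. Of 15 markers of neutrophils and their progenitors, 2 in each wild-type and 3 in each knockout library reached 1 FPKM, with Csf3r and Retnlg at 0. Their sum of 95.8 and 115 FPKM against 34.7 and 33.0 FPKM was mostly Ctsg, and without it the sum was 5.37 and 6.35 FPKM against 7.64 and 5.64 FPKM. Mpo, the myeloperoxidase of that lineage, was at 0.0380 and 0.0445 FPKM against 1.13 and 1.31 FPKM. The part of other cell types in these differences was not tested. The tryptase Tpsb2, at 3063 and 3026 FPKM, and the granzyme Gzmb, at 3596 and 3261 FPKM, hardly differed between the control libraries.

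Most other proteases lay within 1.5-fold in the control libraries, and those past it were lower. These were 2 of 11 other serine proteases (18.2%) and 2 of 20 caspases and calpains (10%), beside the lists that follow. Among metalloproteases, Adam8, a sheddase of myeloid cells, stood out of 15 measured at 38.3 and 31.6 FPKM in wild type against 10.1 and 8.04 FPKM in the knockout. Cathepsins and lysosomal peptidases had 4 of 18 lower (22.2%) and 0 higher, against 4.49% and 3.25% of all measured genes. Their median was -0.31 (-0.17 in TPM), and 16 of the 18 had a ratio below 0. Napsa was among the lower ones, at 99.5 and 103 FPKM against 52.5 and 63.4 FPKM. The proprotein convertase Furin was at 724 and 486 FPKM against 386 and 345 FPKM. Casp1, the caspase that activates interleukin 1 beta, was at 73.4 and 74.1 FPKM against 33.8 and 31.9 FPKM, and its relative Casp4 at 17.5 and 17.2 FPKM against 10.8 and 9.57 FPKM. Each of these genes was lower in both knockout libraries. Of 24 aminopeptidases, dipeptidases and carboxypeptidases, 1 was lower, Pepd, and 0 were higher.

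Protease inhibitors had, with the AP-1 list below, the lowest median of the 41 function lists, -0.32 (-0.18 in TPM, and 0 without a filter on low values), with 6 of 13 measured members lower and 0 higher. In the ruxolitinib pair 2 of the 6 were at 1.5-fold or more lower. Spint1, a membrane inhibitor of matriptase and of hepatocyte growth factor activator, was at 27.9 and 15.7 FPKM in wild type against 5.48 and 2.68 FPKM in the knockout, a log2 ratio of -2.16. The activator itself, Hgfac, was at 71.4 and 62.4 FPKM against 35.7 and 48.9 FPKM, whereas the growth factor Hgf was at 0.470 and 0.487 FPKM against 2.88 and 1.93 FPKM. These members of 1 axis thus lay in different directions. Cst3, a secreted inhibitor of cathepsins, was at 604 and 671 FPKM against 383 and 476 FPKM. Serpina3g was at 92.4 and 51.7 FPKM in the control libraries and at 6.09 and 4.22 FPKM in the ruxolitinib ones, so the drug groups differed more than the genotypes.

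Chemokines and cytokines were few but spanned the whole range. Of 9 chemokines, 2 were higher and 3 lower. The 2 higher ones passed 1.5-fold in the same direction in the ruxolitinib pair, as did 0 of the 3 lower ones. Ccl6 had the highest ratio of the measured genes, 3.46, at 0.654 and 0.606 FPKM in wild type against 17.1 and 8.58 FPKM in the knockout. Its neighbour Ccl9 was at 2.21 and 1.06 FPKM against 10.23 and 7.77 FPKM. Both attract myeloid cells, and both were higher in each knockout library. Ccl1, by contrast, stood at 10.1 FPKM in the wild-type control and between 0.781 and 2.40 FPKM in the other 3 libraries. Of 37 cytokines and growth factors, 3 were higher and 6 lower. Among these, Il13, a type 2 cytokine, stood at 17.6 FPKM in wild type and 5.05 FPKM in the knockout without drug, and at 0.5004 and 1.34 FPKM with it. Csf1, the macrophage growth factor, stood at 14.3 FPKM in the wild-type control and 6.22 FPKM in the knockout control, with 10.6 and 9.44 under ruxolitinib. Il15 was lower in both pairs, at 5.05 and 9.05 FPKM against 2.42 and 5.01 FPKM.

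Matrix and proteoglycan genes included the granule core protein serglycin, Srgn, at 5383 and 5084 FPKM in wild type against 3502 and 3854 FPKM in the knockout. Ecm1, a matrix protein that binds and inhibits proteases, was at 173 and 201 FPKM against 63.6 and 88.5 FPKM, and Igfbp4, which binds insulin-like growth factors, was at 3.37 and 2.64 FPKM against 11.2 and 6.58 FPKM. Of 37 genes for glycosaminoglycan and heparin synthesis, 3 were lower and 0 higher, with a median of -0.08. In TPM the median was 0.07, which is -0.08 relative to all genes. Hs3st1, the sulfotransferase that completes the antithrombin-binding site of heparin, was at 66.9 and 63.4 FPKM in wild type against 18.8 and 19.5 FPKM in the knockout. The step that starts sulfation in mast cells, Ndst2, was at 229 and 238 FPKM in the control libraries, a log2 ratio of 0.05, so the enzymes of heparin synthesis did not share a direction.

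**Figure D5:**
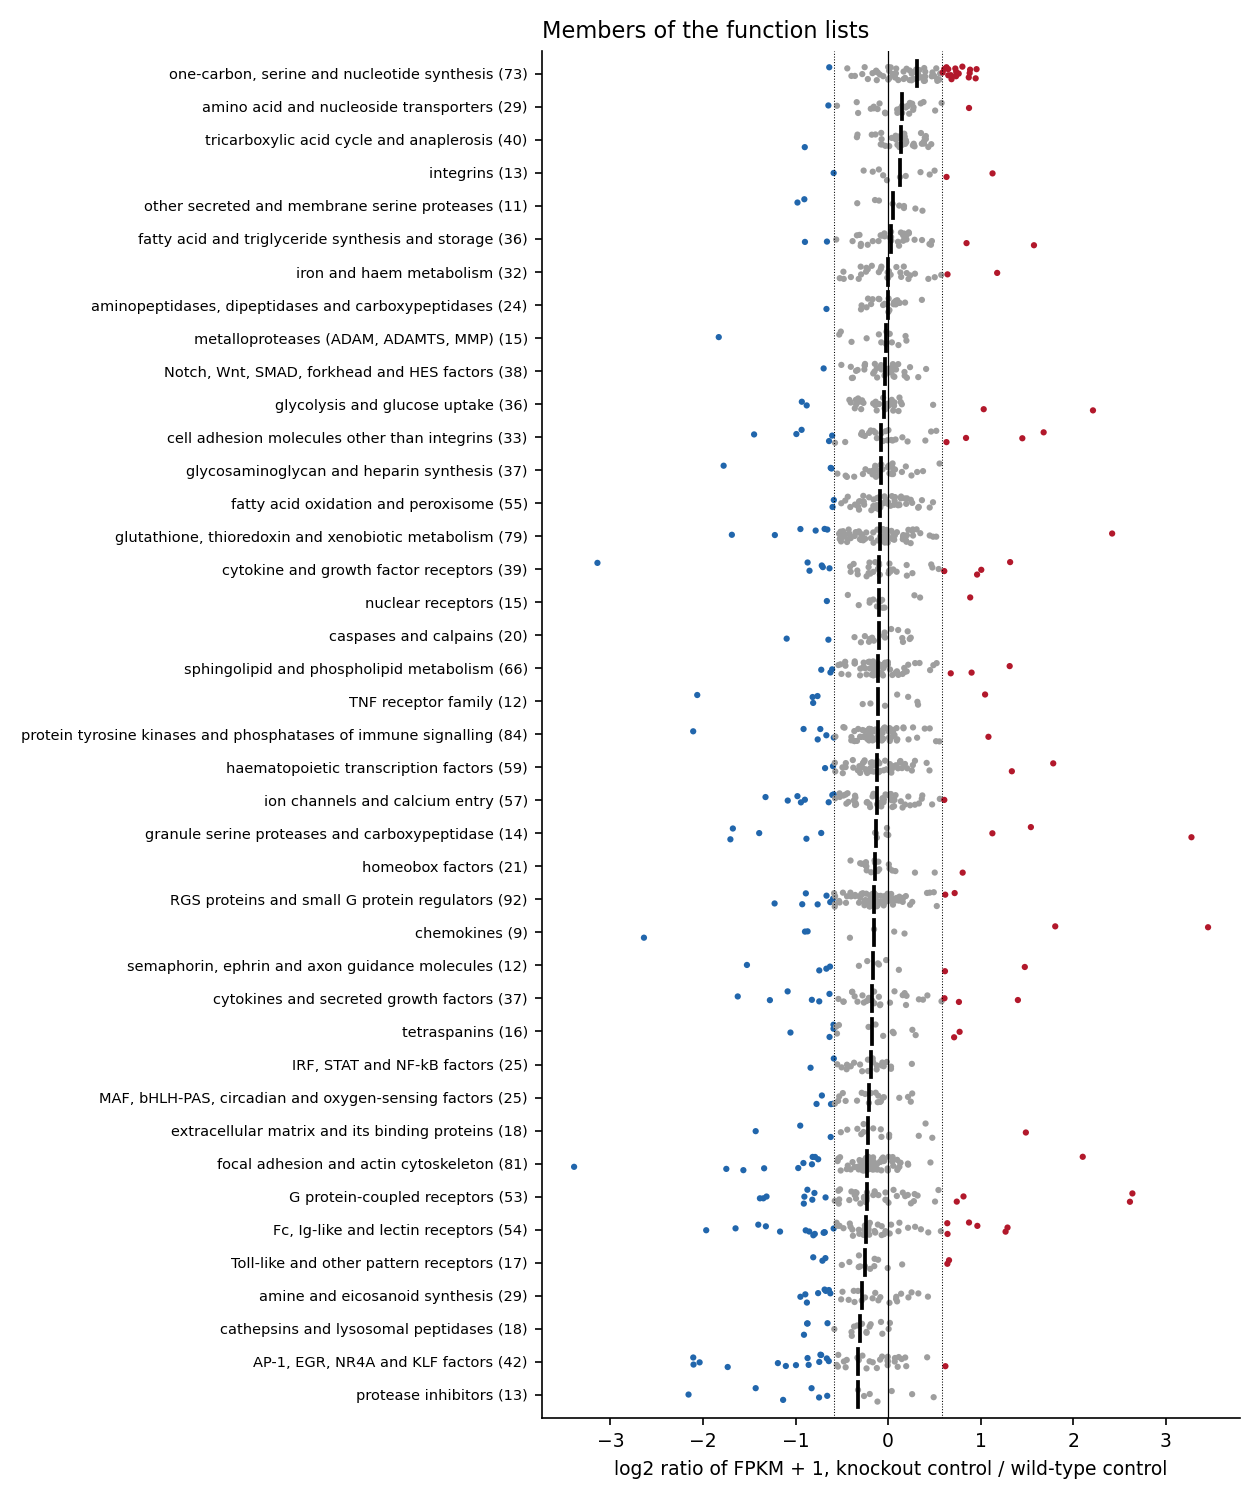
Points are the measured members of the 41 function lists, with the log2 ratio of FPKM + 1, knockout control over wild-type control, on the x axis; red is 1.5-fold or more higher, blue 1.5-fold or more lower, black bars are list medians and numbers in brackets give the measured members. Lists are ordered by median, from 0.32 for folate, serine and nucleotide synthesis (top, labelled with its full list name) to -0.32 for protease inhibitors. In 38 of the 41 lists over 50% of the members lie within 1.5-fold, the exceptions being granule serine proteases, chemokines and guidance molecules.

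Mediator synthesis was lower in part. Of 29 genes for amines and eicosanoids, 8 were lower and 0 higher, with a median of -0.29. In the ruxolitinib pair 2 of the 8 were at 1.5-fold or more lower. Alox5ap, the membrane protein that presents arachidonate to 5-lipoxygenase, was at 824 and 925 FPKM in wild type against 448 and 636 FPKM in the knockout, while the lipoxygenase itself, Alox5, was at 1230 and 956 FPKM in the control libraries. Hdc, the enzyme that makes histamine, was at 12.2 and 3.68 FPKM against 5.85 and 4.52 FPKM, so the order of the genotypes differed between the pairs. Ddc, which decarboxylates aromatic amino acids, was at 13.1 and 14.4 FPKM against 7.33 and 8.84 FPKM. Tph1, the entry enzyme of serotonin synthesis, was at 2642 and 1689 FPKM against 2168 and 1197 FPKM, a log2 ratio of -0.29.

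Nucleotide supply showed the reverse. Of 73 genes for folate, serine and nucleotide synthesis, 18 were at 1.5-fold or more higher and 1 lower, 59 had a ratio above 0, and the median of 0.32 was the highest of the function lists. In the ruxolitinib pair 6 of the 18 were at 1.5-fold or more higher, with a list median of 0.20. Shmt1, a serine hydroxymethyltransferase, was at 9.28 and 9.27 FPKM in wild type against 18.9 and 14.8 FPKM in the knockout. Tyms, which makes thymidylate, was at 18.9 and 18.8 FPKM against 35.4 and 33.5 FPKM. The salvage kinase Tk1 was at 30.1 and 36.7 FPKM against 56.2 and 58.8 FPKM. All 3 were higher in both knockout libraries. Gda, which deaminates guanine, was the lower member, at 6.78 and 4.61 FPKM against 4.01 and 3.55 FPKM. Among transporters of amino acids and nucleosides, Slc43a3, a carrier of purine bases, was at 22.7 and 25.7 FPKM against 42.5 and 45.6 FPKM, and the list had 1 of 29 higher and 1 lower.

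Energy metabolism differed in a few genes. Of 36 genes for glycolysis and glucose uptake, 2 were higher and 2 lower, with a median of -0.05. In TPM the median was 0.10, which is -0.05 relative to all genes. Fbp1, the fructose bisphosphatase of gluconeogenesis, went from 0.193 and 0.179 FPKM in wild type to 4.53 and 4.34 FPKM in the knockout, a log2 ratio of 2.21. Slc16a1, a carrier of lactate and pyruvate, was at 8.01 and 5.81 FPKM against 17.4 and 11.4 FPKM. Pfkp, a phosphofructokinase that works against Fbp1 in the pathway, was at 67.8 and 50.02 FPKM against 35.0 and 24.2 FPKM. The abundant enzymes Ldha and Pkm had log2 ratios of 0.06 and -0.14. Of 40 genes of the tricarboxylic acid cycle, 30 had a ratio above 0, yet 0 were at 1.5-fold or more higher and only Glul, glutamine synthetase, was lower, at 232 and 233 FPKM against 124 and 176 FPKM.

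Lipid lists are read beside the 3.25% of all measured genes that were higher and the 4.49% that were lower at 1.5-fold. Of 55 for fatty acid oxidation and peroxisomes, 2 (3.64%) were lower and 0 higher. The shares below are 5.56% each way for fatty acid and triglyceride synthesis and 4.55% each way for sphingolipids and phospholipids. Of 36 for fatty acid and triglyceride synthesis, 2 were higher and 2 lower: Fabp5, a carrier of fatty acids, was at 1.97 and 0.970 FPKM against 7.84 and 3.23 FPKM, and the elongase Elovl6 was at 3.78 and 4.08 FPKM against 7.60 and 7.21 FPKM. Chpt1, which makes phosphatidylcholine, was at 9.02 and 11.3 FPKM against 23.9 and 23.99 FPKM, and 3 of 66 sphingolipid and phospholipid genes were higher and 3 lower. Apoe, the lipid carrier, was at 2.81 and 3.49 FPKM in wild type against 10.4 and 12.4 FPKM in the knockout. In each of these 4 genes both knockout libraries lay above both wild-type libraries.

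Redox, ion and iron genes followed. The aldo-keto reductases Akr1c12 and Akr1c18 are neighbours that lay in opposite directions: Akr1c12 was at 352 and 171 FPKM against 108 and 56.5 FPKM, and Akr1c18, which inactivates progesterone, was at 0.0234 and 0 FPKM against 4.47 and 0.610 FPKM. Ncf1 and Ncf4, cytosolic subunits of the phagocyte oxidase, were at 106 and 138 FPKM in the wild-type control and 44.9 and 70.9 FPKM in the knockout control, with 102 and 120 FPKM against 48.0 and 64.5 FPKM under ruxolitinib. Their list of 79 had 1 higher and 6 lower. Of 57 ion channel genes, 1 was higher and 8 lower, among them the ATP-gated channel P2rx7 at 57.6 and 60.6 FPKM against 29.5 and 33.7 FPKM and the potassium channel subunit Kcne3 at 73.5 and 74.0 FPKM against 38.9 and 47.8 FPKM. Of 32 iron and haem genes, 2 were higher and 0 lower: the transferrin receptor Tfrc was at 35.2 and 21.0 FPKM against 55.5 and 34.7 FPKM, and the metal carrier Slc39a8 at 1.28 and 0.9298 FPKM against 4.15 and 2.40 FPKM. The 12 erythroid markers, 3 or 4 of them at 1 FPKM or more, summed to 72.5 and 63.0 FPKM in wild type and 92.8 and 83.6 FPKM in the knockout. Tfrc is itself on that list, so the sum is not separate from the Tfrc values. Of the other members, Car2 was at 30.6 and 34.1 FPKM against 31.5 and 43.7 FPKM. Epor was at 4.68 and 6.37 FPKM against 2.46 and 3.29 FPKM, and Slc4a1 was at 0 in every library. The part of erythroid cells in the Tfrc values was not tested. Outside the lists, the organic anion carrier Slco2b1 was at 9.10 and 10.1 FPKM in wild type against 0.962 and 1.40 FPKM in the knockout, and the Wnt export protein Wls was at 40.0 and 47.1 FPKM against 145 and 130 FPKM.

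Transcription factors of blood cells lay mostly within 1.5-fold. Of 59 measured, 2 were higher and 2 lower, with a median of -0.12. In TPM the median was 0.03, which is -0.115 relative to all genes. Id3, which holds E proteins off DNA, was at 4.18 and 3.72 FPKM in wild type against 16.8 and 16.3 FPKM in the knockout, a log2 ratio of 1.78. Id1, of the same family, was at 2.69 and 0.514 FPKM against 8.32 and 1.99 FPKM. Its level was higher in the knockout within each treatment, though the knockout ruxolitinib library lay below the wild-type control. Id2, the most abundant of the family, had a log2 ratio of -0.19. Lyl1, a partner of E proteins in stem cells and myeloid cells, was at 112 and 121 FPKM against 69.6 and 72.5 FPKM. Gata2 and Meis1, factors of mast cells and progenitors, had log2 ratios of -0.23 and -0.23. Hoxb4, a homeobox factor of stem cells, was the 1 of 21 homeobox genes past 1.5-fold, at 0.731 and 0.561 FPKM against 2.02 and 1.67 FPKM.

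Nuclear receptors and signal-dependent factors gave further single members. Rara, the retinoic acid receptor, was at 4.99 and 4.34 FPKM in wild type against 10.1 and 7.55 FPKM in the knockout, while its partner Rxra was at 4.19 and 6.46 FPKM against 2.28 and 4.18 FPKM. Stat3, which acts downstream of JAK kinases, was at 46.3 and 49.5 FPKM against 25.5 and 32.8 FPKM, and with Relb it made up the 2 lower of 25 IRF, STAT and NF-kB factors, of which 0 were higher. Jak2 itself was at 36.8 and 35.1 FPKM against 24.5 and 24.9 FPKM, a log2 ratio of -0.57. The aryl hydrocarbon receptor Ahr was at 16.7 and 13.5 FPKM against 10.5 and 9.40 FPKM.

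AP-1, EGR, NR4A and KLF factors had 14 of 42 measured members lower and 1 higher, with a median of -0.32 (-0.18 in TPM). Of the 14, 0 were at 1.5-fold or more lower in the ruxolitinib pair, where the list's median was 0.01. Egr2 stood at 21.8 FPKM in the wild-type control and between 3.07 and 4.32 FPKM in the other 3 libraries. Nr4a1, a nuclear receptor induced within minutes of stimulation, was at 37.8 FPKM against 6.73 to 8.46 FPKM, and Fosb, a partner of Jun, at 21.3 FPKM against 2.70 to 4.18 FPKM. Egr3 was at 136 FPKM against 31.6 to 40.2 FPKM. These values are high in the wild-type control library alone. That library was the highest of the 4 for 26 of the 42 members, and for 39 of the 81 focal adhesion and actin genes. The share of all measured genes highest in it was not counted. Other genes with this pattern were Tgm2, a transglutaminase, at 10.5 FPKM against 0.559 to 1.63 FPKM, and Errfi1, a feedback inhibitor of the EGF receptor, at 10.7 FPKM against 0.861 to 1.92 FPKM. Of all 113 genes at 2-fold or more lower in the knockout control, the wild-type control was the highest library for 78 and the wild-type ruxolitinib library for 35. These genes were picked as higher in the wild-type control than in the knockout control, which sets part of this split in advance.

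Signalling proteins inside the cell had more lower than higher members past 1.5-fold. RGS proteins and regulators of small G proteins had 2 of 92 higher (2.17%) and 8 lower (8.70%), against 3.25% and 4.49% of all measured genes. Among the lower ones was Gnai1, an inhibitory G protein subunit, at 14.9 and 14.98 FPKM against 5.81 and 7.38 FPKM. Tyrosine kinases and phosphatases had 1 of 84 higher (1.19%) and 6 lower (7.14%). The Tec family kinase Txk was at 10.8 and 3.90 FPKM against 1.74 and 0.764 FPKM, and the phosphatase receptor Ptprs was at 2.63 and 3.08 FPKM against 6.69 and 7.45 FPKM. Both kept their direction in the ruxolitinib pair. Cdkn2a, the locus of the cell cycle inhibitor p16 and of Arf, was at 141 and 126 FPKM against 38.7 and 35.8 FPKM.

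Positions of the genes were read from the deposited table. Chromosome 13 had the highest share at 2-fold or more in either direction, 4.74% of 380 genes, followed by chromosome 14 with 3.46% of 347 and chromosome 3, which holds Tet2, with 2.90% of 482, against 1.79% overall. Within 10 Mb of Tet2 lay 49 measured genes, of which 3 were higher and 5 lower at 1.5-fold or more, 16.3% against 7.74% overall. The largest of these ratios belongs to Rpl34-ps1, at 880 and 835 FPKM in wild type and 0 in both knockout libraries, which the table places at the same locus as Rpl34, so the assignment of its reads is uncertain. Rpl34, with a log2 ratio of -0.80, is also among the 5 lower genes, so both of these entries come from a single locus of uncertain assignment. Genes past 2-fold formed 25 neighbouring pairs with starts within 200 kb, and 19 of the 25 had the same direction. Such pairs were not counted over all measured genes, so these counts have no background. With 113 lower and 64 higher genes past 2-fold, some pairs share a direction whatever their position. Some pairs, such as Pilrb1 and Pilrb2, are also near-identical genes whose values are uncertain. The chymase locus on chromosome 14 held both directions, with Mcpt1, Mcpt2 and Ctsg lower and Mcpt8 between them higher. On chromosome 17, Prss34 and the tryptase Tpsab1 were both higher, the latter at 23.3 and 10.03 FPKM against 52.0 and 42.9 FPKM. S100a4 and S100a6 on chromosome 3, with log2 ratios of 1.20 and 1.14, and Cdkn2a and Cdkn2b on chromosome 4, with -1.84 and -1.44, were further pairs of 1 direction.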

How the data were processed

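Total RNA of sorted mouse bone marrow cells was depleted of ribosomal RNA and sequenced, per the labels' protocols. The authors deposited FPKM values per gene for 4 libraries, made with STAR and Cuffdiff on mm10 per the submitters' processing notes; versions, annotation and scaling were not given in the sources used here. A further table that the authors deposited holds log2 fold changes, a test score, p-values and q-values for library pairs, of which q-values of 1 of 6 comparisons were used; its 2 columns of FPKM values were not used.

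Ratios were taken on log2(FPKM + 1) for genes whose mean over the 4 libraries reached 1 FPKM. With 1 library per group there was no test. Gene types came from RefSeq, where 9883 of 9910 symbols matched. Chromosomes and positions came from the loci in the authors' further table. Transcript starts for the CG counts, and transcript lengths for the depth estimate, came from GENCODE M21. Depth was estimated from steps between the lowest FPKM of transcripts over 1500 bases, with between 75.9% and 82.6% of held-out values within 0.15 of a whole multiple. Counting steps were tested on simulated data. The gene lists, 41 for functions and 12 for cell types, and the rules were chosen with earlier results of these data known. Named genes were the 20 highest and 20 lowest protein-coding genes with at least 5 FPKM in a control library, up to 5 members per list and direction at 1.5-fold or more, the 3 most abundant members of each list, and Tet2, Jak2, Kit and Dnmt3a. They came to 303, of which 200 were at 1.5-fold or more. Sex-linked genes, cell type markers, neighbours in position and genes in opposite directions in the pairs were named apart from that rule. Alternatives were pseudocounts of 0.1 and 5, other filters, TPM, median centring and a 3-fold rule. Python 3.11.15, numpy 2.4.6, pandas 2.3.3 and matplotlib 3.10.9 were used.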

Additional observations from a re-analysis of the deposited data

Results flagged for a closer look

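Some genes passed 1.5-fold in the pair without drug and passed it the other way in the ruxolitinib pair, and this difference was not tested for any of them. Egr1, an immediate early factor, had log2 ratios of -0.87 without drug and 0.63 in the ruxolitinib pair. Il13 had -1.62 and 0.64. The chemokine Ccl4 had -0.90 and 1.16, and Ccl7 had -0.87 and 0.89. Pet117, a factor for cytochrome oxidase assembly, had 1.51 and -1.99. Rnaset2a had -1.67 and 1.78, and it shares its locus in the table with Rnaset2b, so that its reads are of uncertain assignment. The X-linked RNA Xist, which was left out of the measured genes, was at 53.2 FPKM in the knockout control library and at 0.0241 FPKM in the wild-type control.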

How the results depend on the processing

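No count below has a replicate error, and leaving out a library was not possible with 1 per group. No paired analysis was possible because each group has 1 library and the shared replicate number only names it. Against 64 higher and 113 lower genes at 2-fold or more, a pseudocount of 0.1 gave 105 and 184, a pseudocount of 5 gave 18 and 57, a mean of at least 5 FPKM gave 30 and 71, and a 3-fold rule gave 16 and 41. TPM gave 130 higher, and TPM over the measured gene types off X and Y, chosen after seeing the data, gave 110 higher, with 103 and 122 lower. In the latter, 47.4% of genes past 2-fold were higher and the median ratio was 0.11. No filter on low values gave 71 and 120, protein-coding genes alone gave 58 and 104, and centring on the median gave the counts 64 and 113. Of 200 named genes at 1.5-fold or more, 200 stayed so with a pseudocount of 0.1 and with centring, 174 in TPM, 178 in the added TPM and 127 with a pseudocount of 5. The motif shares planned for promoters were not run, since the promoter table covered under 80% of the genes. At 1 to 5 FPKM, 11.2% of genes passed 1.5-fold, against 7.44% at 5 to 20, 6.00% at 20 to 100 and 7.65% at 100 FPKM or more; the part of depth in this was not tested.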
